A study of Mus musculus with 8 samples.

Results

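The Ly6 and Ms4a surface genes described here are 10 of the 23366 genes in the table of this RNA-seq study of mouse macrophages: Ly6a, Ly6c1, Ly6c2, Ly6e, Plac8, Ms4a4c, Ms4a6b, Ms4a6c, Ms4a6d and Ms4a7. They were picked by name because several were high in the libraries labelled knock-in LPS, so every comparison that uses those libraries is a description of these genes, with no test. Macrophages were grown from the bone marrow of C57BL/6 mice, either wild type or homozygous for Lsd1SA, a knock-in allele (Lsd1SA/SA) of the gene for the histone demethylase LSD1. At passage 1 they were kept without serum for 24 h. They were then left untreated or given lipopolysaccharide (LPS), a molecule of the outer wall of Gram-negative bacteria that macrophages sense through TLR4, for 2 h at a label dose of 1 mg/ml. The 4 groups were untreated wild type, wild type with LPS, untreated knock-in and knock-in with LPS, with 2 libraries each. Titles of the last group give the time alone, and its other labels name LPS. The labels do not tell whether both libraries of a group are from separate cultures or mice. The p-values therefore measure just the spread between these samples, and that spread may be technical.

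Ly6 proteins are small, cysteine-rich surface proteins held in the membrane by a lipid anchor. Ly6C, encoded by Ly6c1 and Ly6c2, marks the classical, inflammatory monocytes of the mouse, and Ly6A, known as Sca-1, marks haematopoietic stem cells and rises on many blood cells exposed to interferon. Ms4a proteins cross the membrane several times. The best known are the B cell antigen CD20 (Ms4a1) and a chain of the high-affinity IgE receptor (Ms4a2), and several others are made by monocytes and macrophages. Plac8 belongs to neither family. It encodes a small cysteine-rich protein that is abundant in several kinds of myeloid and lymphoid cell.

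The 4 Ly6 genes lie on chromosome 15 in the order Ly6e, Ly6i, Ly6a, Ly6c1 and Ly6c2, with Ly6i the only other gene among them. The 5 Ms4a genes lie on chromosome 19 in the order Ms4a7, Ms4a4c, Ms4a6c, Ms4a6b and Ms4a6d, with Ms4a4a, Ms4a4b, Gm8369 and Ms4a4d between them, and Plac8 lies on chromosome 5. The order was read from RefSeq on GRCm38.p6 and counts protein-coding genes only. Several of these genes are close copies of each other. The longest coding sequence of each gene in GENCODE vM21 was aligned end to end, with gaps counted as not identical. The share of identical positions was 91.8% for Ms4a4b and Ms4a4c and 86.4% for Ly6a and Ly6i. It was 80.9% for Ly6c1 and Ly6c2, and 79.9% for Ms4a6b and Ms4a6d. Ly6c1 had 444 bases and Ly6c2 396, so gaps lowered their share, while Ly6a and Ly6i both had 405. Ly6e shared 50.4 to 52.6% with the other Ly6 genes of that group.

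The bases before the annotated starts show the same kinship. RefSeq windows were found for 7 of the 10 genes, all but Ly6a, Ly6e and Ms4a6d. The 3 pairs of copies shown let upstream sequence be set beside the ratios reported further on: in the libraries labelled knock-in LPS against untreated knock-in these were 12.2 and 8.58 for Ly6c1 and Ly6c2, 2.36 and 3.04 for Ms4a6b and Ms4a6c, and 3.35 and 10.98 for Ms4a4b, which is outside the set, and Ms4a4c. Each line gives the 250 bases before a start, from RefSeq on GRCm38.p6, and capitals mark runs of at least 12 bases identical in both genes of the pair. Ly6c1 and Ly6c2 each have several starts, and the pair of windows that aligned best is shown. The identities cover the aligned part of the windows only. Over a local alignment, Ly6c1 and Ly6c2 were identical at 164 of 215 paired bases (76.3%).
Ly6c1 (chr15:75048838-75049087, minus strand): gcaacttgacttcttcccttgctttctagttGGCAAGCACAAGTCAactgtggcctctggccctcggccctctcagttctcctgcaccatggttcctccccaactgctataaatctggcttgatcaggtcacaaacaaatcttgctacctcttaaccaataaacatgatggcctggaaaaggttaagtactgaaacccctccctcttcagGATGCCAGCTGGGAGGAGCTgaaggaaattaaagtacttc
Ly6c2 (chr15:75111972-75112221, minus strand): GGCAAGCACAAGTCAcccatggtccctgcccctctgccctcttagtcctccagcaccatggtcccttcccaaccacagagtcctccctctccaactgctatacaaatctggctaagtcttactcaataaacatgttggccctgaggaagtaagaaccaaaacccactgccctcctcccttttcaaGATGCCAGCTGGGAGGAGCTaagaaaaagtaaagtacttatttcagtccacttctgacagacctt

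In the next pair 148 of 172 aligned bases (86.0%) were identical, with a longest run of 48.
Ms4a6b (chr19:11518309-11518558, plus strand): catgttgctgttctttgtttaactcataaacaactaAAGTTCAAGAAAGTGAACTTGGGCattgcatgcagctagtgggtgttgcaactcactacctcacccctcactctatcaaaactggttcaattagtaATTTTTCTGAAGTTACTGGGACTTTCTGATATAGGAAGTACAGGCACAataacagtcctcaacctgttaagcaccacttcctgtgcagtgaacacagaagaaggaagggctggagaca
Ms4a6c (chr19:11469118-11469367, plus strand): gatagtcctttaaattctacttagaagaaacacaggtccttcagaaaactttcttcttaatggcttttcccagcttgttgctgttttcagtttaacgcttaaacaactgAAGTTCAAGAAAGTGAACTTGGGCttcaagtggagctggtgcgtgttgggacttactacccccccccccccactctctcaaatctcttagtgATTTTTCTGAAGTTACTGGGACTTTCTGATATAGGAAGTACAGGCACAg

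In the last pair 160 of 192 aligned bases (83.3%) were identical.
Ms4a4b (chr19:11443308-11443557, plus strand): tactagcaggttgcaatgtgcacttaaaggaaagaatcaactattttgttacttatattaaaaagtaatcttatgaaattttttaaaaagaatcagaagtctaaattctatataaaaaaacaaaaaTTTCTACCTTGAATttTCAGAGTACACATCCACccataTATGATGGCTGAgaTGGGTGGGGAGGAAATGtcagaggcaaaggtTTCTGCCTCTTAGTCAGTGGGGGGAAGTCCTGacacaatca
Ms4a4c (chr19:11407411-11407660, plus strand): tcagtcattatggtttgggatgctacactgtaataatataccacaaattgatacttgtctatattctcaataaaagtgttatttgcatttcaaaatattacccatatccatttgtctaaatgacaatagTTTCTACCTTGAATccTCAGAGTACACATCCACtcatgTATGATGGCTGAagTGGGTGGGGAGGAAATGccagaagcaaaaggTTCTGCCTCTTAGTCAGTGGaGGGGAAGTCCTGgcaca

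Windows of 250 bases before to 50 after a start were searched on both strands for 4 motifs. The interferon-stimulated response element (GAAA, any 2 bases, GAAA) was in none of the 7 genes with a window. It was in 3.99% of all 27025 genes with a RefSeq window, a set not limited to the genes tested here. The STAT site TTCNNNGAA was in 0 of 7 and 9.55% of that set, and the NF-kB site (GGG, any 2 bases, TTTCC) in 0 of 7 and 1.89%. The PU.1 site GAGGAAGT was in 2 of 7, Ly6c1 and Ly6c2, and in 3.69% of that set. In the Ly6c2 window printed above it starts at position -108 from the start, in lower case, and a second match lies past the bases shown. In Ly6c1 it is in the window of another start. A match is a description of these letters, and their absence holds for these windows only.

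Libraries held 40379258 to 55595160 reads. Levels are TMM-scaled CPM (counts scaled to library size times a TMM factor for each library). That factor was 1.07 in both libraries of untreated wild type and 0.878 and 0.866 in wild type with LPS. It was 1.06 and 1.05 in untreated knock-in and 1.02 in both libraries labelled knock-in LPS. A lower factor gives a higher level for the same share of reads. The lowest count of any of the 10 genes in a library was 97 reads. All 10 genes were at 1 or more in every library, so none passed the filter on low values only through the group where it was high. All 14 macrophage identity genes were above 0 in every library, Csf1r at 1210 to 1635. Kdm1a, which encodes LSD1, had a mean of 32.5 in untreated wild type, 46.5 in wild type with LPS, 33.1 in untreated knock-in and 39.9 in the libraries labelled knock-in LPS, but a transcript level cannot check the knock-in allele. Xist, an RNA made from the silenced X, ranged from 315 to 437 in 6 libraries and was 0.366 and 0.212 in those labelled knock-in LPS. Transcripts of the Y chromosome (Eif2s3y, Ddx3y, Uty, Kdm5d) were at 8.80 to 35.0 in the libraries labelled knock-in LPS and at 0 elsewhere, apart from 0.0503 for Ddx3y in 1 library of wild type with LPS. These 4 passed the filter only through the 2 libraries labelled knock-in LPS. The labels give no sex, and in comparisons with the libraries labelled knock-in LPS the sex of the cells and the label cannot be told apart.

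Ly6a, Ly6c1, Ly6c2, Plac8 and Ms4a4c were 8.58 to 14.3 times as high in the libraries labelled knock-in LPS as in untreated knock-in cells. Ly6e, Ms4a6b, Ms4a6c, Ms4a6d and Ms4a7 were 1.76 to 3.04 times as high. In wild-type cells the ratios of LPS to untreated group means lay closer to 1, from 0.781 to 1.37. Untreated knock-in and wild-type cells differed by ratios of 0.965 to 1.13.

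**Figure D1:**
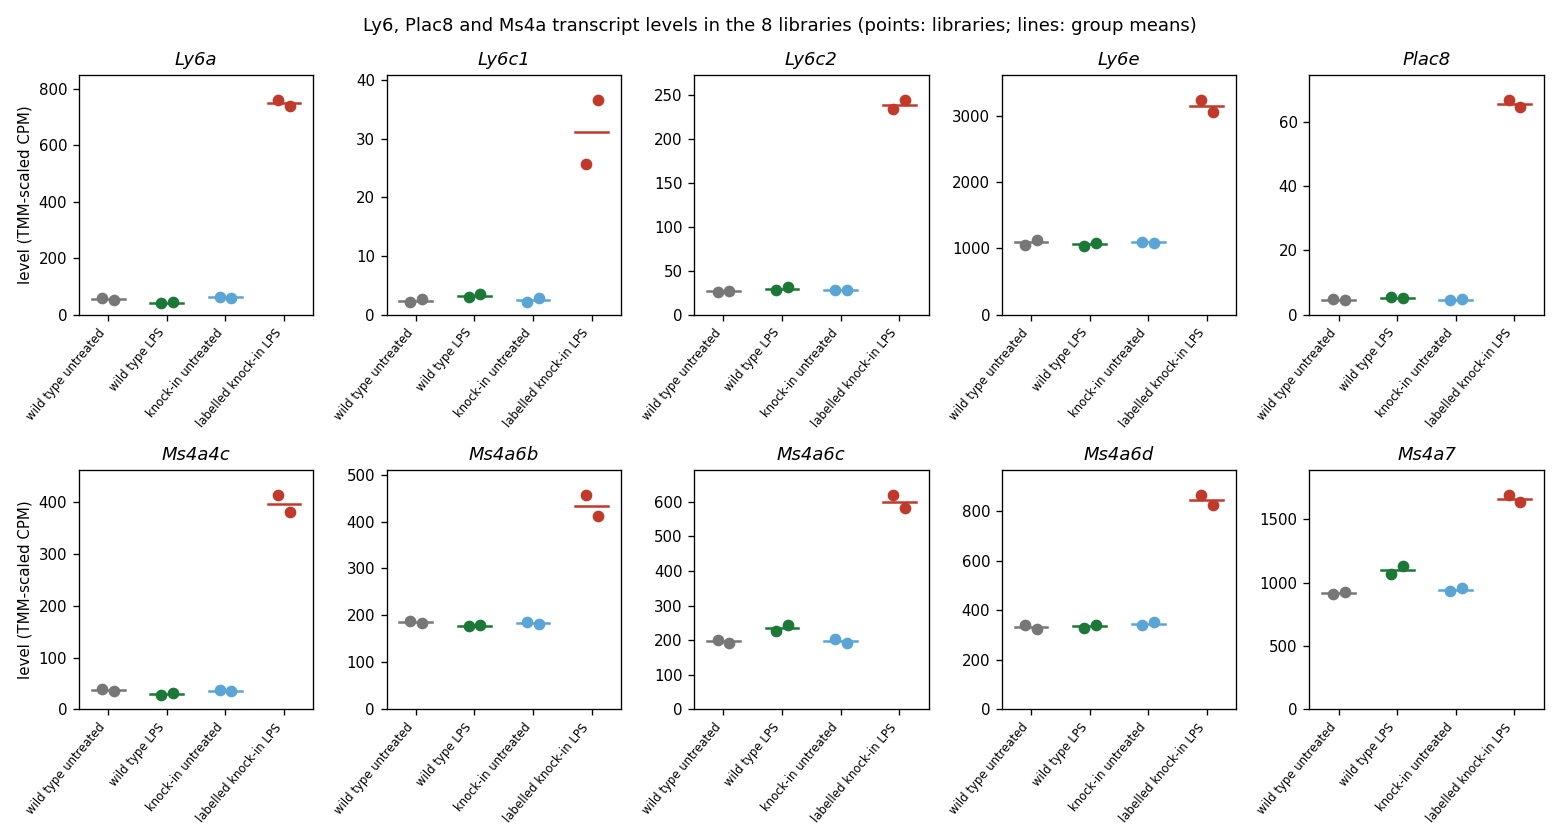
Level of each of the 10 genes (vertical axis, TMM-scaled CPM, starting at 0, own scale per gene) in the 4 groups; points are libraries and lines are means of 2. In every panel both libraries labelled knock-in LPS lie above the other 6, from Ms4a7 (1688 and 1632 against at most 1132) to Ly6a (759.7 and 740.2 against at most 61.8).

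Ly6a stood at 57.5 and 50.1 in untreated wild type, 40.9 and 43.1 in wild type with LPS, 61.8 and 60.2 in untreated knock-in, and 759.7 and 740.2 in the libraries labelled knock-in LPS. The 2 high libraries were 12.3 times the untreated knock-in mean, with single pairs of libraries at 11.98 to 12.6, and 17.9 times the mean of wild type with LPS, the highest ratio of the 10 in that comparison. Wild type with LPS lay below both untreated groups without overlap, so Ly6a was lower with LPS in wild type and higher in the libraries labelled knock-in LPS.

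Ly6c2 was at 25.9 and 27.3 in untreated wild type, 27.6 and 31.4 in wild type with LPS, 27.7 and 28.04 in untreated knock-in, and 234 and 243.9 in the libraries labelled knock-in LPS. Ly6c1, which is also made by endothelial cells, was at 2.10 and 2.64, then 3.04 and 3.44, then 2.23 and 2.88, and at 25.7 and 36.6 in the same order of groups. The ratio to untreated knock-in was 8.58 for Ly6c2 and 12.2 for Ly6c1, and the latter ran from 8.91 to 16.4 over pairs of libraries, as both its high libraries and its untreated knock-in libraries lay apart. For every 100 Ly6c2 reads there were 8.05 to 11 Ly6c1 reads in the 6 other libraries and 10.96 and 14.99 in those labelled knock-in LPS, so the copies kept a near ratio in 1 of the 2 high libraries and not in the other. Of the 50-base windows of Ly6c1 transcripts, 32.8% also occur in another gene, against 14.5% for Ly6c2 and 19% for Ly6a. No source used here says how reads of such windows were assigned, so the split between copies is uncertain.

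Ly6e, a gene induced by interferon whose protein restricts entry of several viruses, was at 1052 and 1125 in untreated wild type, 1036 and 1083 in wild type with LPS, 1101 and 1075 in untreated knock-in, and 3229.6 and 3059 in the libraries labelled knock-in LPS. It had no 50-base window in common with another gene. The first 3 groups overlapped each other, and the last was 2.89 times the untreated knock-in mean. Plac8 had the highest ratio of the 10 against untreated knock-in, 14.3, with pairs of libraries at 13.6 to 15.02. Its levels were 4.79 and 4.58, 5.45 and 5.04, 4.43 and 4.74, and 66.6 and 64.5 in the same order of groups. It too had no 50-base window in common with another gene.

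Ms4a4c stood apart from the other Ms4a genes. It was at 38.7 and 36.3 in untreated wild type, 28.2 and 30.9 in wild type with LPS, 36.9 and 35.5 in untreated knock-in, and 413 and 382 in the libraries labelled knock-in LPS. That was 10.98 times untreated knock-in and 13.5 times wild type with LPS. As with Ly6a, wild type with LPS lay below both untreated groups. Its near copy Ms4a4b, best known from T cells, had a mean of 1.51 in untreated knock-in and 5.06 in the libraries labelled knock-in LPS, a ratio of 3.35. Of the 50-base windows of Ms4a4b 2.4% occur in another gene, Ms4a4c among them, and of those of Ms4a4c 8.19%. Ms4a4b is low beside Ms4a4c, and how reads of shared windows were assigned is not known. Whether its rise holds reads of Ms4a4c was not tested.

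Ms4a6c was at 202 and 193 in untreated wild type, 226 and 245 in wild type with LPS, 203 and 193 in untreated knock-in, and 619 and 582 in the libraries labelled knock-in LPS. Of its 50-base windows 51.4% occur in another gene, Ms4a6b among them, the highest share of the 10 genes. Ms4a6b was at 188 and 184, 177 and 179.8, 185 and 182, and 456 and 411 in the same order. In the 3 low groups Ms4a6b ran from 177 to 188, while Ms4a6c was higher in wild type with LPS than in either untreated group.

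Ms4a6d, another myeloid Ms4a gene, was at 342 and 327, 331 and 340.4, 339 and 351, and 866 and 828 in that order. Ms4a7, which is made by macrophages of several tissues, was at 906 and 929 in untreated wild type, 1066 and 1132 in wild type with LPS, 933 and 957 in untreated knock-in, and 1688 and 1632 in the libraries labelled knock-in LPS. The ratios to untreated knock-in were 3.04 for Ms4a6c, 2.45 for Ms4a6d, 2.36 for Ms4a6b and 1.76 for Ms4a7. Library pairs of Ms4a6d (2.36 to 2.55) and Ms4a6b (2.22 to 2.50) overlapped, as did those of Ms4a6c (2.87 to 3.21) and Ly6e (2.78 to 3.005). Those of Ly6c2 (8.35 to 8.81) and Ms4a6c lay far apart, which divides the 10 genes into 5 with large and 5 with small ratios.

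Both libraries labelled knock-in LPS lay above both of untreated knock-in, and above both of wild type with LPS, for each of the 10 genes. Over all 11919 genes tested the shares were 41.1% and 45.1%. On the log2(level + 1) scale, the differences to untreated knock-in ran from 0.81 to 3.60 with a median of 2.33, where the median of all genes tested was 0.016. The genes were picked on these libraries and nothing is read from these counts. In bulk RNA, more cells of a type and more RNA per cell cannot be told apart. The 2 comparisons share the libraries labelled knock-in LPS, and the second set of ratios, side by side with the first, was 2.97 for Ly6e, 12.5 for Plac8, 2.43 for Ms4a6b, 2.55 for Ms4a6c, 2.52 for Ms4a6d and 1.51 for Ms4a7.

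**Figure D2:**
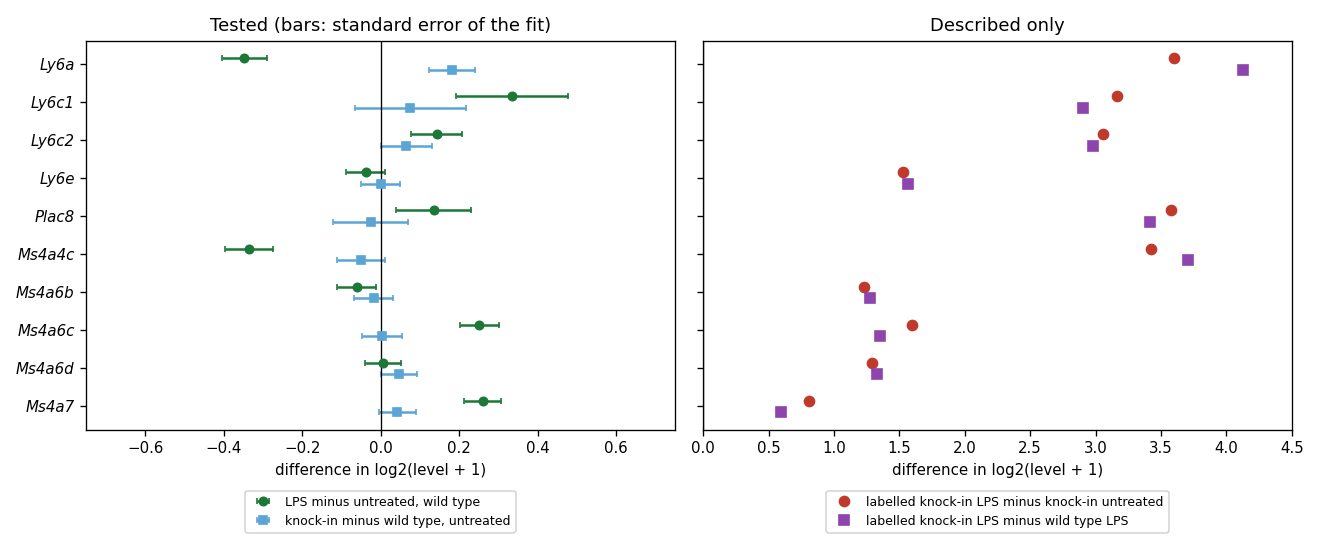
Difference in log2(level + 1) for each gene (horizontal axis; the 2 panels differ in scale). Left, the 2 tested comparisons, with bars for the standard error of the limma fit; right, the 2 comparisons with the libraries labelled knock-in LPS, which are described and not tested. On the left all values lie between -0.35 and 0.33; on the right they lie between 0.59 and 4.13.

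LPS in wild-type cells was tested as a difference between means of libraries that played no part in the choice of genes. The spread in this test was estimated from all 8 libraries, those labelled knock-in LPS among them. A limma fit without those libraries also called 3 of the 10 genes higher and 2 lower. Ly6a fell by 0.35 on the log2(level + 1) scale (SE 0.0582, limma adjusted p = 1.66e-05) and Ms4a4c fell by 0.34 (SE 0.061, limma adjusted p = 4.59e-05). Ms4a7 rose by 0.26 (SE 0.0469, limma adjusted p = 4.32e-05), Ms4a6c by 0.25 (SE 0.0506, limma adjusted p = 0.000157) and Ly6c1 by 0.33 (SE 0.142, limma adjusted p = 0.0478). The other 5 did not pass: Ly6c2 0.14, Plac8 0.14, Ms4a6d 0.01, Ly6e -0.04 and Ms4a6b -0.06, with limma adjusted p from 0.0618 to 0.926. In all, 3 of 10 were higher and 2 of 10 lower, beside 26.8% and 30.7% of all 11919 genes, so the share called in either direction was near the background.

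The falls of Ly6a and Ms4a4c held under all 19 other settings. The rises of Ms4a6c and Ms4a7 turned under quantile normalization, which forces all libraries to 1 distribution: Ms4a6c was then at -0.20 (limma adjusted p = 0.00117) and Ms4a7 at -0.26 (limma adjusted p = 3.55e-05), and 7 of 10 genes were called lower. That setting also moved the share of all calls that were higher from 46.6% to 35.4%. The TMM factor was lower in wild type with LPS than in untreated wild type, and levels without that factor were not tested. The rise of Ly6c1 did not pass with a pseudocount of 5 (limma adjusted p = 0.154), with no filter (0.196), or without untreated wild type replicate 1 (0.281), LPS replicate 1 (0.0658) or LPS replicate 2 (0.228).

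The genotype was tested in untreated cells, with means that do not use the libraries labelled knock-in LPS and a spread estimated from all 8 libraries. A limma fit without those labelled knock-in LPS called 0 of the 10 genes higher and 0 lower. None of the 10 genes was called by limma, edgeR or DESeq2, beside 0.00839% of all genes called higher and 0% lower by limma. At an unadjusted p under 0.05 there was 1, Ly6a, beside 13.6% of all genes. Ly6a was at 0.18 for knock-in minus wild type (SE 0.0582, limma adjusted p = 0.203), and the libraries of the 2 groups did not overlap, as for Ly6c2 and Ms4a7, beside 21.4% of all genes higher without overlap. Without untreated wild type replicate 1 the difference was 0.28 (limma adjusted p = 0.00819). Of the other 9, Ly6c1 was at 0.08, Ly6c2 at 0.07, Ms4a6d at 0.05 and Ms4a4c at -0.05, with SE of 0.0459 to 0.142, and the remaining 5 lay between -0.03 and 0.04.

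The other genes of both families were mostly under the filter on low values. Of 28 further Ly6 domain genes in the table, 5 passed the filter. One of them, Ly6i, did so only through the libraries labelled knock-in LPS. Of the other 4, 0 were higher and 2 lower by limma in those libraries against untreated knock-in, beside 28.5% and 28.3% of all genes. Without knock-in LPS replicate 1, 2 of all 5 were called higher. Ly6i lies between Ly6e and Ly6a. It was at 0.443 to 0.754 in 6 libraries and at 9.05 and 8.35 in those labelled knock-in LPS, a ratio of 18.3 to untreated knock-in, and with such a filter it had to differ. Of its 50-base windows 4.76% occur in another gene, Ly6a among them. Whether its level holds reads of Ly6a was not tested. Plaur, the urokinase receptor, fell by 0.78, from a mean of 55.0 to 31.6 (limma adjusted p = 1.2e-11), and in wild type it rose with LPS from a mean of 54.0 to 349.9 (2.67, limma adjusted p = 9.09e-23). Cd59a, which blocks complement on the cell surface, fell by 0.83 (limma adjusted p = 7.87e-07). In wild type with LPS 2 of the 5 were higher, Plaur and the neutrophil gene Cd177, and 0 lower, beside 26.8% and 30.7% of all genes.

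Of 11 further Ms4a genes in the table, 3 passed the filter. Against untreated knock-in, 2 of these were higher in the same 2 libraries and 0 lower, beside 28.5% and 28.3% of all genes. Ms4a4b was higher by 1.27 (limma adjusted p = 3.71e-08), with the split of reads between it and Ms4a4c uncertain. Ms4a2, the IgE receptor chain of mast cells and basophils, was higher by 0.63 (limma adjusted p = 0.000826) and also rose with LPS in wild type, by 0.40 (limma adjusted p = 0.0216). That rise was not called by DESeq2, nor by limma without untreated wild type replicate 2 or LPS replicate 2. Ms4a3, a gene of granulocyte and monocyte precursors, was at 0.12 and 0.32 in these comparisons and did not pass in either. Ms4a1, the B cell gene, was under the filter, with group means of 0.123 to 0.557. Around Plac8, 8 neighbours were tested, of which 2 were higher and 1 lower, near the same shares of all genes. The largest was Coq2 at 0.69 (limma adjusted p = 9.61e-08).

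**Figure D3:**
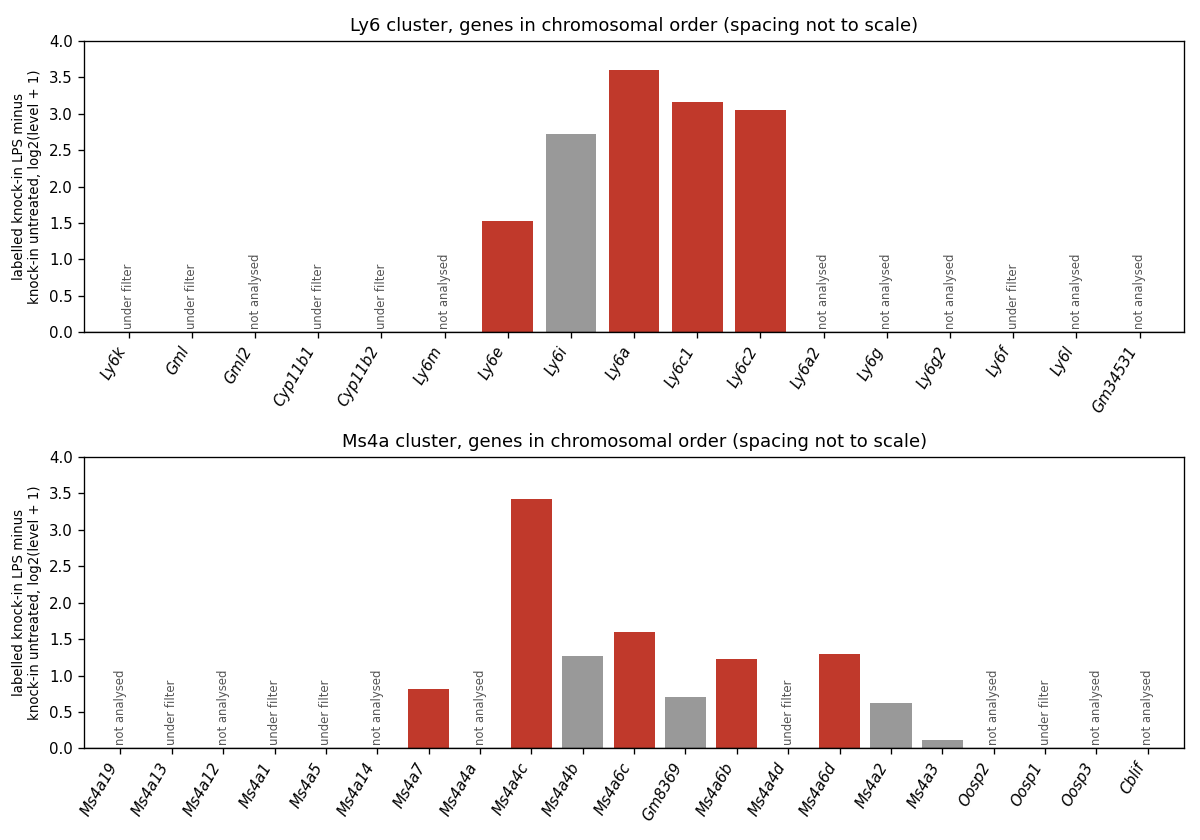
Difference in log2(level + 1) between the libraries labelled knock-in LPS and untreated knock-in (vertical axis) for genes in chromosomal order around the Ly6 and Ms4a genes; red bars are the 10 genes described (Plac8 is elsewhere), grey bars other tested genes, and genes without a bar were under the filter or not analysed. Bars are contiguous from Ly6e (1.53) to Ly6c2 (3.06), and Ms4a4c (3.42) is the tallest of its cluster.

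Other transcripts differed in the same libraries, and the lists below were chosen with earlier results of these data known. The type I interferon response genes had 29 of 30 members higher and 0 lower against untreated knock-in (median 1.77, all genes 0.016), beside 28.5% and 28.3% of all genes, with Ifit3 at 84.4 and 799.3, Rsad2 at 63.0 and 436 and Oas3 at 199.1 and 944 in the 2 groups. Their summed level was 2998 to 3097 in untreated knock-in and 10059 to 10231 in the libraries labelled knock-in LPS. In wild type with LPS it was 7574 to 8123, with 20 of 30 higher and 2 lower, beside 26.8% and 30.7% of all genes (median 0.25; 9 lower under quantile normalization). The summed interferon list was above untreated in both LPS groups, but single genes differed. From untreated wild type to wild type with LPS, Ifit3 went from 86.0 to 212, Rsad2 from 69.0 to 1804 and Oas3 from 199.5 to 195.0. Between the 2 LPS groups, 20 of the 30 genes of the list were higher in the libraries labelled knock-in LPS and 8 lower, beside 38.5% and 36.8% of all genes. Without either library of wild type with LPS, 1 of its genes was lower against untreated knock-in.

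The early LPS response genes were highest in wild type with LPS. In wild type with LPS, Cxcl1, Il6 and Il12b passed the filter only through that group and had to be higher. Of the other 11, all were higher (median 5.66), beside 26.8% of all genes. The summed level of all 14 went from 339 to 352 up to 20541 to 21261. In the libraries labelled knock-in LPS 8 of 14 were higher and 1 was lower against untreated knock-in (median 0.20), beside 28.5% and 28.3% of all genes. The summed level was 581 to 599 against 333 to 344. Without untreated knock-in replicate 1, 2 were lower. Tnf, a cytokine, was at 3977 in wild type with LPS and 48.6 in the libraries labelled knock-in LPS, and the chemokine gene Cxcl2 at 1918 and 2.46. Whether these libraries received LPS as labelled was not tested.

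Monocyte markers did not move as a block with Ly6c2. Of 14 classical monocyte genes, against untreated knock-in 7 were higher and 4 lower in the knock-in LPS libraries (median 0.17), beside 28.5% and 28.3% of all genes. Fcgr1, a high-affinity Fc receptor, went from 287 to 913, S100a4 from 80.9 to 14.5, and Cd14, a receptor for LPS, from 133 to 66.2. Ccr2, the chemokine receptor that defines these monocytes, was at 8.98 and 8.51 in untreated knock-in and 7.83 and 6.78 in the libraries labelled knock-in LPS. Of 13 tested nonclassical monocyte genes 4 were higher and 8 lower (median -0.49), and their summed level was 4312 to 4314 and 2612 to 2816. In wild type with LPS 10 of 14 classical genes were higher and 2 lower, and 5 of 13 nonclassical genes higher and 2 lower, beside 26.8% and 30.7% of all genes. The 2 lower classical genes became 0 or 1 when any single library was left out, and the 2 nonclassical ones became 1 without untreated wild type replicate 1 or LPS replicate 2.

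**Figure D4:**
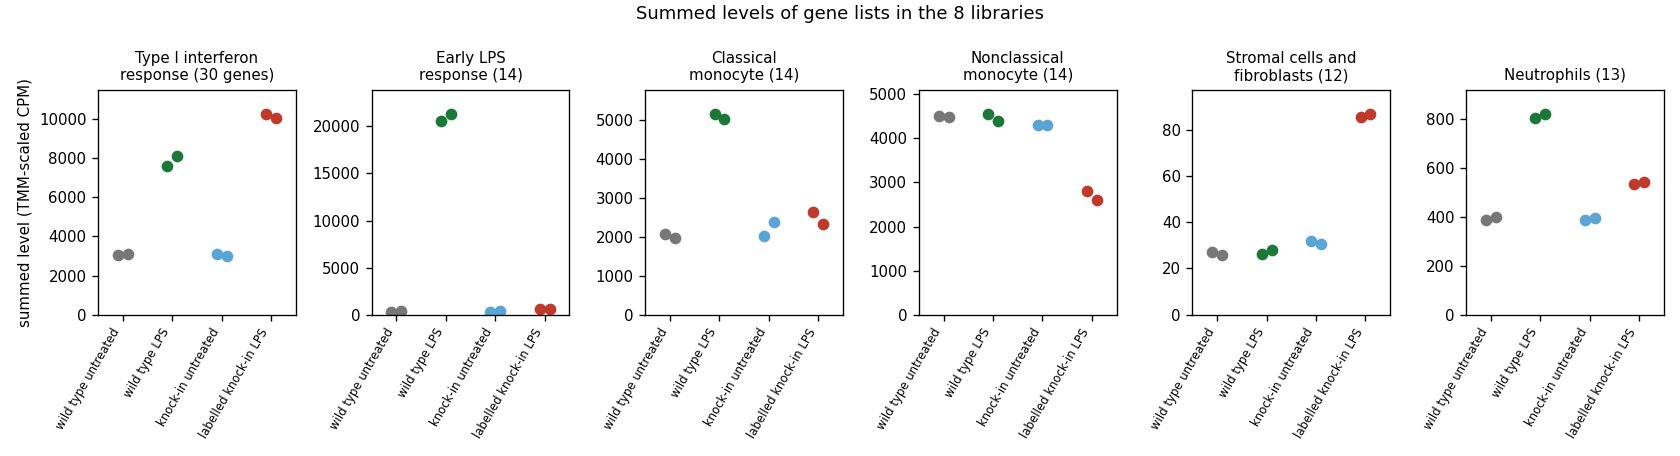
Summed level of the genes of 6 lists (vertical axis, TMM-scaled CPM, starting at 0, own scale per list) in the 8 libraries; points are libraries. The interferon list is high in both LPS groups, the early LPS list only in wild type with LPS (20541 and 21261 against at most 599), and the stromal list only in the libraries labelled knock-in LPS (85.3 and 86.5 against at most 31.9).

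Markers of other cells that can express these genes were counted in the same comparison. Of 10 tested stromal and fibroblast markers, Dcn, Postn and Cxcl12 passed the filter only through the libraries labelled knock-in LPS and had to be higher. Of the other 7, 6 were higher and 0 lower, beside 28.5% and 28.3% of all genes. The summed level of the list went from 30.4 to 31.9 in untreated knock-in up to 85.3 to 86.5. Of 13 neutrophil markers Retnlg passed only through those libraries, and of the other 12, 9 were higher and 0 lower (summed 386 to 395 and 534 to 541). In wild type with LPS 9 of 13 were higher (summed 802 to 818), beside 26.8% of all genes. Endothelial markers, which bear on Ly6a and Ly6c1, were 3 higher and 1 lower of 4 (summed 149.8 to 156.7 and 181.8 to 181.9), with Kdr, a receptor for VEGF, at 7.79 and 6.81 in untreated knock-in and 26.35 and 26.31 in the libraries labelled knock-in LPS, and Flt1, another, at 0.367 and 0.295 and at 1.18 and 0.935. The 1 lower was Vwf, with a mean of 13.6 in untreated knock-in and 4.11 in the libraries labelled knock-in LPS (-1.51, limma adjusted p = 2.7e-12). Tie1, under the filter, was at 0.276 and 0.332 in untreated knock-in and at 0.0386 and 0 in the libraries labelled knock-in LPS. Cdh5 was at 0.85 and 0.48 and at 1.14 and 0.741. Cldn5 and Emcn were at 0 in the libraries labelled knock-in LPS and at no more than 0.0926 in any other. Plasmacytoid dendritic cell markers, which bear on Plac8 and Ly6c2, were 2 higher and 0 lower of 5, among them Runx2, from a mean of 2.66 to 4.55. Klk1 was at 0 in all 8 libraries, and Siglech at 0 in the libraries labelled knock-in LPS and at no more than 0.0926 in the others. Bst2, an interferon gene that is on both lists, made up most of the summed rise from 598 to 610.3 up to 1149.8 to 1199.

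Haematopoietic progenitor markers, which bear on Ly6a, were 2 higher and 0 lower of 4, the transcription factor gene Gata2 (means of 2.18 and 4.66) and Procr (23.4 and 27.5). Kit was at 1.75 and 2.05 in untreated knock-in and 1.37 and 1.43 in the libraries labelled knock-in LPS, and did not pass. The summed level was 29.4 to 31.3 and 35.3 to 36.8. Of 14 macrophage identity genes 2 were higher and 6 lower. Conventional dendritic cell markers were 0 higher and 6 lower of 8, B cell markers 1 and 1 of 3, T and NK cell markers 0 and 2 of 3, and erythroid and megakaryocyte markers 0 and 2 of 4. Beside each of these counts, and those of progenitor and macrophage genes, stand 28.5% higher and 28.3% lower of all genes. Leaving out untreated knock-in replicate 1 or knock-in LPS replicate 2 left 1 progenitor marker higher. Leaving out either of these or untreated knock-in replicate 2 left 1 T and NK marker lower, and without the last, 2 B cell markers were higher, 1 of the 3 (Cd79a) having passed the filter only through the libraries labelled knock-in LPS. The part of interferon response, other cells and sex in the levels of the 10 genes was not tested.

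Likeness between genes over the 8 libraries was the root mean square difference between centred log2(level + 1) values, where 0 is the same shape. The values are not scaled and include the 2 libraries the genes were picked on, so the distances hold the same differences as the ratios. Ms4a6b and Ms4a6d were the nearest pair at 0.0533, Ly6c1 and Ly6c2 were at 0.154, and Ly6a and Ms4a4c, on different chromosomes, at 0.178. The farthest pair was Ly6a and Ms4a7 at 1.37.

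Among 9225 other genes, Ly6a and Plac8 were nearest to Ccl8, a chemokine gene (0.207 and 0.164), and Ms4a4c to Olfml3, which encodes a secreted protein (0.107). Ly6c1 and Ly6c2 were nearest to Usp18, a protease that removes the interferon-induced modifier ISG15 (0.216 and 0.132), and next to Slpi (0.228) and Apol9b (0.141). Ly6e was nearest to Bst1 (0.055), and Ms4a6c to Dhx58 (0.0543) and Cfb (0.056). Tap1, a peptide transporter of antigen presentation, was nearest to both Ms4a6d (0.0277) and Ms4a6b (0.0675), followed by the immunoproteasome gene Psmb9 (0.0796) and Lgals9 (0.0713). Ms4a7 was nearest to Rnaset2a and Rnaset2b (0.0406), copies that have identical values in the table. Ccl8 and Olfml3 were at 7.34 and 13.1 in untreated knock-in and at 112 and 127 in the libraries labelled knock-in LPS, and at 7.21 and 10.1 in wild type with LPS.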

How the data were processed

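RNA-seq of mouse bone marrow-derived macrophages gave 8 libraries in 4 groups, taken from the sample labels. The authors deposited a table of a signal per gene made from read counts, in the form of TMM-scaled CPM. Divided by what 1 read is worth in its library, each value above 0 gave a whole number of reads within 0.001 (100% of values). The tools were TopHat2 2.0.9, edgeR and bedtools, and the genome build mm9, per the submitters' processing notes. No source used here gives the counting rule, strand or annotation, so reads of overlapping genes on opposite strands (Gm5692 for Ms4a4c, Gm19261 for Ms4a6b, BE692007 for Ms4a6c) cannot be told apart.

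Genes were tested on log2(value + 1) with limma 3.58.1 (R 4.3.3), 2-sided, with a variance trend, 4 group means, 4 residual and 19.1 prior degrees of freedom. It covered the 11919 genes at 1 or more in at least 2 libraries, with Benjamini-Hochberg adjustment over all of them and a threshold of 0.05. The script was tested on simulated data. edgeR 4.0.16 and DESeq2 1.42.0 on the whole reads were alternatives. The genes described, the 17 lists and the tests were chosen with earlier results of these data known. Named besides the 10 genes are Kdm1a, the sex-linked transcripts, up to 3 genes per list with the smallest unadjusted p against untreated knock-in (early LPS list: with LPS in wild type) and the 2 nearest genes in shape with a mean of 5 or more, of which 1 is not reported here. Csf1r, Ccr2, Cdh5, Cldn5, Emcn, Flt1, Tie1, Siglech, Klk1, Ms4a1, Cd177, Coq2 and the genes that passed the filter through 1 group were named after their values were seen. Coding identity came from global alignments with Biopython 1.88.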

Additional observations from a re-analysis of the deposited data

Results flagged for a closer look

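For 3 of the 10 genes both LPS libraries lay below both untreated ones in wild type and above both in the knock-in. The knock-in part held for all 10, which were picked on those libraries. Over all 11919 genes tested, 41% were lower without overlap in wild type and 41.1% higher without overlap in the knock-in. The share of genes with both was not counted, so whether 3 of 10 is an excess was not tested. Ly6a was at -0.35 with LPS in wild type and at 3.60 in the libraries labelled knock-in LPS against untreated knock-in, both on the log2(level + 1) scale. Ms4a4c was at -0.34 and 3.42, and Ms4a6b at -0.0605 and 1.23, where the wild-type value did not pass the test (limma adjusted p = 0.313). These differences between genotypes were not tested, since the genes were picked on the libraries labelled knock-in LPS.

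For the other family genes the difference between the LPS effects, knock-in less wild type, was tested with limma over all 11919 genes, of which 31.8% were higher and 31.8% lower. It was 2.62 for Ly6i, which passed the filter on low values only through the libraries labelled knock-in LPS and so had to differ, 1.14 for Ms4a4b (adjusted p = 2.04e-05), -0.68 for Cd59a (adjusted p = 0.000584) and -3.45 for Plaur (adjusted p = 1.74e-21). For Kdm1a it was -0.25 (adjusted p = 0.0225). Each rests on the 2 libraries labelled knock-in LPS, whose sex-linked transcripts differ from those of the other 6. The split of reads between Ms4a4b and Ms4a4c, and between Ly6i and Ly6a, is uncertain.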

How the results depend on the processing

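Of 190 values of single genes with LPS in wild type, 173 kept their call (higher, lower or not called) over the alternatives, and 184 kept their sign. In untreated knock-in against wild type 187 of 188 kept their call and 172 kept their sign. Under quantile normalization Ms4a6c (-0.20), Ms4a7 (-0.26) and Ms4a6d (-0.43, from 0.01 with no call) reversed with LPS in wild type, Ly6e (-0.63), Ms4a6b (-0.43) and Plac8 (0.34) were called, and 7 of the 10 genes were lower. The cause was not tested. Ly6c2 was called higher with median-of-ratios scaling (adjusted p = 0.0231), edgeR (0.0153) and DESeq2 (0.0209), without untreated wild type replicate 2 (0.0444) and without LPS replicate 1 (0.0103). Leaving out 1 library at a time, 2 to 4 of the 10 genes were higher and 2 to 2 lower with LPS in wild type, and over all genes 2766 to 3161 were higher and 3207 to 3613 lower.

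In untreated knock-in against wild type, genes higher numbered 0 with no filter, 4 with a robust trend and 27 with DESeq2, and genes lower numbered 1 with a pseudocount of 5, 14 with a robust trend, 37 with DESeq2 and 1 without the libraries labelled knock-in LPS. Leaving out 1 library at a time gave 1 to 261 genes higher and 0 to 220 lower, and 0 to 1 of the 10 genes higher. The extremes came without untreated wild type replicate 1 or 2. On whole reads edgeR called 3528 genes higher and 3314 lower with LPS in wild type, and 1 and 0 between untreated genotypes.

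Deviations of same-numbered libraries correlated weakly, at -0.118 to 0.137 over pairs of groups. With 2 libraries a group this cannot tell whether replicate numbers pair the libraries. With the replicate number as a block, 3196 genes were higher and 3661 lower with LPS in wild type, with 4 of the 10 genes higher (Ly6c2 added, adjusted p = 0.0479) and 2 lower, and 1 gene was higher and 0 lower between untreated genotypes. With 2 libraries a group, a small difference between genotypes was hard to detect, and levels near 2, as for Ly6c1, rest on about 100 reads.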
